A study of Mus musculus with 2 samples.

Results

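The 9 genes described here encode enzymes and receptors of the prostaglandin and leukotriene pathways: Ptgs1, Ptgs2, Ptges, Hpgds, Ptger2, Ptger4, Alox5, Alox5ap and Ltc4s. They were taken by symbol as named steps of these pathways, with no threshold on their values, and all 9 were found among the 32285 genes of the deposited tables. Their UMIs, which are barcoded tags that count captured RNA molecules once, were summed in droplet single-cell RNA-seq libraries of mouse cells from 143B tumors. 143B is a human osteosarcoma cell line, and the tumors grew in nude mice, which have no thymus and so lack most T cells. The study asked how an antibody against CD3L1 (ITPRIPL1), a surface protein of the tumor cells, changes the tumor microenvironment (TME). Mice were 4 weeks old when randomized and injected with tumor cells. They later received 10 mg/kg of control IgG, a human IgG1 isotype antibody, or 10 mg/kg of anti-CD3L1, a humanized IgG1, every 3 days for 4 doses. CD45+ cells were then enriched with beads. There was 1 library per treatment, each pooled from 3 tumors with no map from cells to tumors.

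With 1 library per group no test was possible, so no p-value is given, and differences between libraries cannot be told apart from differences between pools, sorts or sequencing runs. All intervals below are exact 95% intervals that cover counting error only. After filtering, 8557 cells remained in the control IgG and 11269 in the anti-CD3L1 library, with medians of 5526 and 8267 UMIs per cell, and 26 cell barcodes occurred in both. Cells were gated per cell on fixed marker lists, and classes are called X-like for that reason. Neutrophil-like cells made up 69.5% of the control IgG cells (5944) and 5.32% of the anti-CD3L1 cells (599), macrophage-like cells 6.23% and 34.4%, monocyte-like cells 16.7% and 30.5%, and NK-like cells 1.88% and 8.17%. Those 4 classes held at least 50 cells in both libraries, and 6 smaller ones (3 dendritic, plasmacytoid dendritic, type 2 innate lymphoid and B) reached 50 cells in the anti-CD3L1 library only. The gate cuts a range of marker scores, and cells near its boundary numbered between 7 and 92 per class in the control IgG and between 9 and 280 in the anti-CD3L1 library for the 4 shared classes. T-like, basophil-like and mast-like cells numbered at most 16 in a library, no cell was eosinophil-like, and these classes are not described.

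Prostaglandins and leukotrienes are short-lived lipid signals made from arachidonic acid, which phospholipases release from membranes. Cyclooxygenases, encoded by Ptgs1 (constitutive) and Ptgs2 (inducible), make the common precursor PGH2, from which Ptges makes PGE2 and Hpgds makes PGD2, and PGE2 acts through receptors that include EP2 (Ptger2) and EP4 (Ptger4). In the other branch, 5-lipoxygenase (Alox5) with its membrane helper FLAP (Alox5ap) makes LTA4, which Ltc4s couples to glutathione to form the cysteinyl leukotriene LTC4. Myeloid cells are the best known source of both branches, and PGE2 in tumors is known for restraining NK cells and dendritic cells.

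Promoter windows of 4 genes are shown as examples of the cell patterns described below: Ptgs2 and Ptges, both lower in the anti-CD3L1 library in monocyte-like cells, Hpgds, which was highest in macrophage-like cells of both libraries, and Alox5, which was highest in neutrophil-like cells among the 4 shared classes. Each runs 5′ to 3′ from 250 bases before to 50 bases after the RefSeq start in GRCm38.p6, and capitals mark motif matches. The windows lie at chr1:150099781-150100080 on the plus strand (Ptgs2), chr2:30903248-30903547 on the minus strand (Ptges), chr6:65144681-65144980 on the minus strand (Hpgds) and chr6:116461129-116461428 on the minus strand (Alox5).
Ptgs2: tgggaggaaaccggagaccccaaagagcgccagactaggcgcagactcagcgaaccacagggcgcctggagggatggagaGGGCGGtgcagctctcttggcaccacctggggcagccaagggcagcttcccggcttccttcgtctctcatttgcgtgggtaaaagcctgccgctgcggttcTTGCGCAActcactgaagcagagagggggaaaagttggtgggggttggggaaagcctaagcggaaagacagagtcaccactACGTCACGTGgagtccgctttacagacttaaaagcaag
Ptges: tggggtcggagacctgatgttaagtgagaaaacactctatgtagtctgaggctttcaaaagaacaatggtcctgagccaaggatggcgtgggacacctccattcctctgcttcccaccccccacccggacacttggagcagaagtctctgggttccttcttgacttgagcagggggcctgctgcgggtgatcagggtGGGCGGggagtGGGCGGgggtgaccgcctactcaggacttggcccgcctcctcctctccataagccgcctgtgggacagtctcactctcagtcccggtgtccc
Hpgds: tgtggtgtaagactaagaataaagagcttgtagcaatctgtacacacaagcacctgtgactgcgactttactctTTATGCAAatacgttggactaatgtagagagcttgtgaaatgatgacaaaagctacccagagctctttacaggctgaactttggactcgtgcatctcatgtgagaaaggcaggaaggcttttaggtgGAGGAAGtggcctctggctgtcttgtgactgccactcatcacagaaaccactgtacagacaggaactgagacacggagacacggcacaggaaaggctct
Alox5: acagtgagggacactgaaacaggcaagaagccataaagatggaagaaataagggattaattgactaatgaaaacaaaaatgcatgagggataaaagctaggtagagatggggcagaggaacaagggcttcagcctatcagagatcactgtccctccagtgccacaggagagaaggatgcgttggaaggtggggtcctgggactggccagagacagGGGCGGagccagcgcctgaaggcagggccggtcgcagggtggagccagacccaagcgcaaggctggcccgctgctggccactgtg
Motifs were searched on both strands of 8 member windows (no entry matched Alox5ap) and of all 32851 windows. The cAMP response element core ACGTCA was in 7.51% of all windows and in 1 member window, that of Ptgs2. There it starts 13 bases after the annotated RefSeq start, from which all positions here are counted. It overlaps an E-box CACGTG (7.15% of all windows, 1 member) that starts 17 bases after that RefSeq start. The C/EBP motif TTGCNNAA was in 10.8% of all windows and in 3 member windows, among them Ptgs2 (69 bases before the start) and Hpgds (176 bases before, on the other strand). The GC box GGGCGG was in 35.7% of all windows and in 4 member windows, once each in Ptgs2 and Alox5, 2 times in Ptges and 4 times in Ptger4. The PU.1 motif GAGGAAG, named for a myeloid transcription factor, was in 13.6% of all windows and in 3 member windows (Ptgs1, Hpgds and Ltc4s), and the AP-1 motif TGANTCA in 7.81% of all windows and in 0 of the 8. These matches describe the letters of the windows only.

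Ptgs2, the inducible cyclooxygenase, was highest in neutrophil-like cells of both libraries. Levels are given as UMIs per 1000000 UMIs of the class (CPM), with the interval in parentheses. They were read from 3′ tags, so levels are compared between classes and libraries and not between genes. In the control IgG library, Ptgs2 stood at 643 CPM (634 to 651) in neutrophil-like, 419.8 CPM (410.3 to 429) in monocyte-like, 133 CPM (125 to 142) in macrophage-like and 11.5 CPM (7.32 to 17.3) in NK-like cells, with no neighbours in that order overlapping. In the anti-CD3L1 library the 4 classes kept that order at 224 CPM (202 to 247), 181 CPM (176 to 186), 91.6 CPM (88.6 to 94.7) and 7.64 CPM (5.93 to 9.68). Neutrophil-like cells exceeded macrophage-like cells 4.82-fold in the control IgG and 2.44-fold in the anti-CD3L1 library. Among the smaller anti-CD3L1 classes, Ptgs2 was highest at 118 CPM (95.2 to 144) in type 2 innate lymphoid-like and 101 CPM (90.8 to 112) in type 2 dendritic-like cells, which overlapped each other. The other 4 smaller classes lay between 22.0 and 36.3 CPM. For comparison, barcodes with 10 to 100 UMIs, which hold mainly free RNA, carried Ptgs2 at 323 CPM and 128 CPM in the control IgG and anti-CD3L1 libraries. Neutrophil-like and monocyte-like cells lay above these values, and macrophage-like and NK-like cells below them, in each library.

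Ptges, the inducible PGE2 synthase, was highest in monocyte-like cells in both libraries among the 4 shared and 6 smaller classes. Its control IgG levels were 133 CPM (128 to 138) in monocyte-like, 40.4 CPM (36.0 to 45.2) in macrophage-like, 36.0 CPM (34.0 to 38.0) in neutrophil-like and 4.02 CPM (1.73 to 7.91) in NK-like cells, where the macrophage-like and neutrophil-like intervals overlapped. Its anti-CD3L1 levels were 36.8 CPM (34.6 to 39.1), 19.4 CPM (18.0 to 20.8), 17.1 CPM (11.6 to 24.4) and 1.68 CPM (0.943 to 2.78) in the same order, again with macrophage-like and neutrophil-like cells overlapping. No smaller class exceeded 7.11 CPM. Monocyte-like cells thus had 3.29-fold more Ptges than macrophage-like cells in the control IgG and 1.90-fold more in the anti-CD3L1 library. Free RNA carried Ptges at 64.4 CPM in the control IgG library, where only monocyte-like cells of the shared classes lay above it. In the anti-CD3L1 library it carried 16.2 CPM, below the monocyte-like and macrophage-like intervals and within the neutrophil-like one. Ptgs1, the constitutive cyclooxygenase, was sparse. Among the gated classes described here its highest level was 9.34 CPM (7.28 to 11.8) in control IgG macrophage-like cells and 6.87 CPM (6.06 to 7.76) in anti-CD3L1 macrophage-like cells, on 70 and 262 UMIs, and the other shared classes held between 1 and 71 UMIs each.

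Hpgds, the hematopoietic PGD2 synthase, followed the macrophage gate. It stood at 164 CPM (155 to 174) in control IgG and 139 CPM (135 to 143) in anti-CD3L1 macrophage-like cells. Monocyte-like cells had 20.5 CPM (18.4 to 22.7) and 31.8 CPM (29.7 to 33.9), neutrophil-like cells 9.70 CPM (8.68 to 10.8) and 28.5 CPM (21.2 to 37.6), and NK-like cells 3.51 CPM (1.41 to 7.24) and 5.95 CPM (4.46 to 7.79). Macrophage-like cells therefore exceeded monocyte-like cells 8.01-fold and neutrophil-like cells 16.9-fold in the control IgG library, and 4.37-fold and 4.87-fold in the anti-CD3L1 library. In the latter, the next levels were those of plasmacytoid dendritic-like cells at 55.2 CPM (44.0 to 68.5) and B-like cells at 52.2 CPM (29.2 to 86.1), the B-like value resting on 15 UMIs. Free RNA carried Hpgds at 27.4 CPM and 54.7 CPM, so of the 4 shared classes only macrophage-like cells lay above it in each library, and the plasmacytoid dendritic-like and B-like intervals included it.

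**Figure D1:**
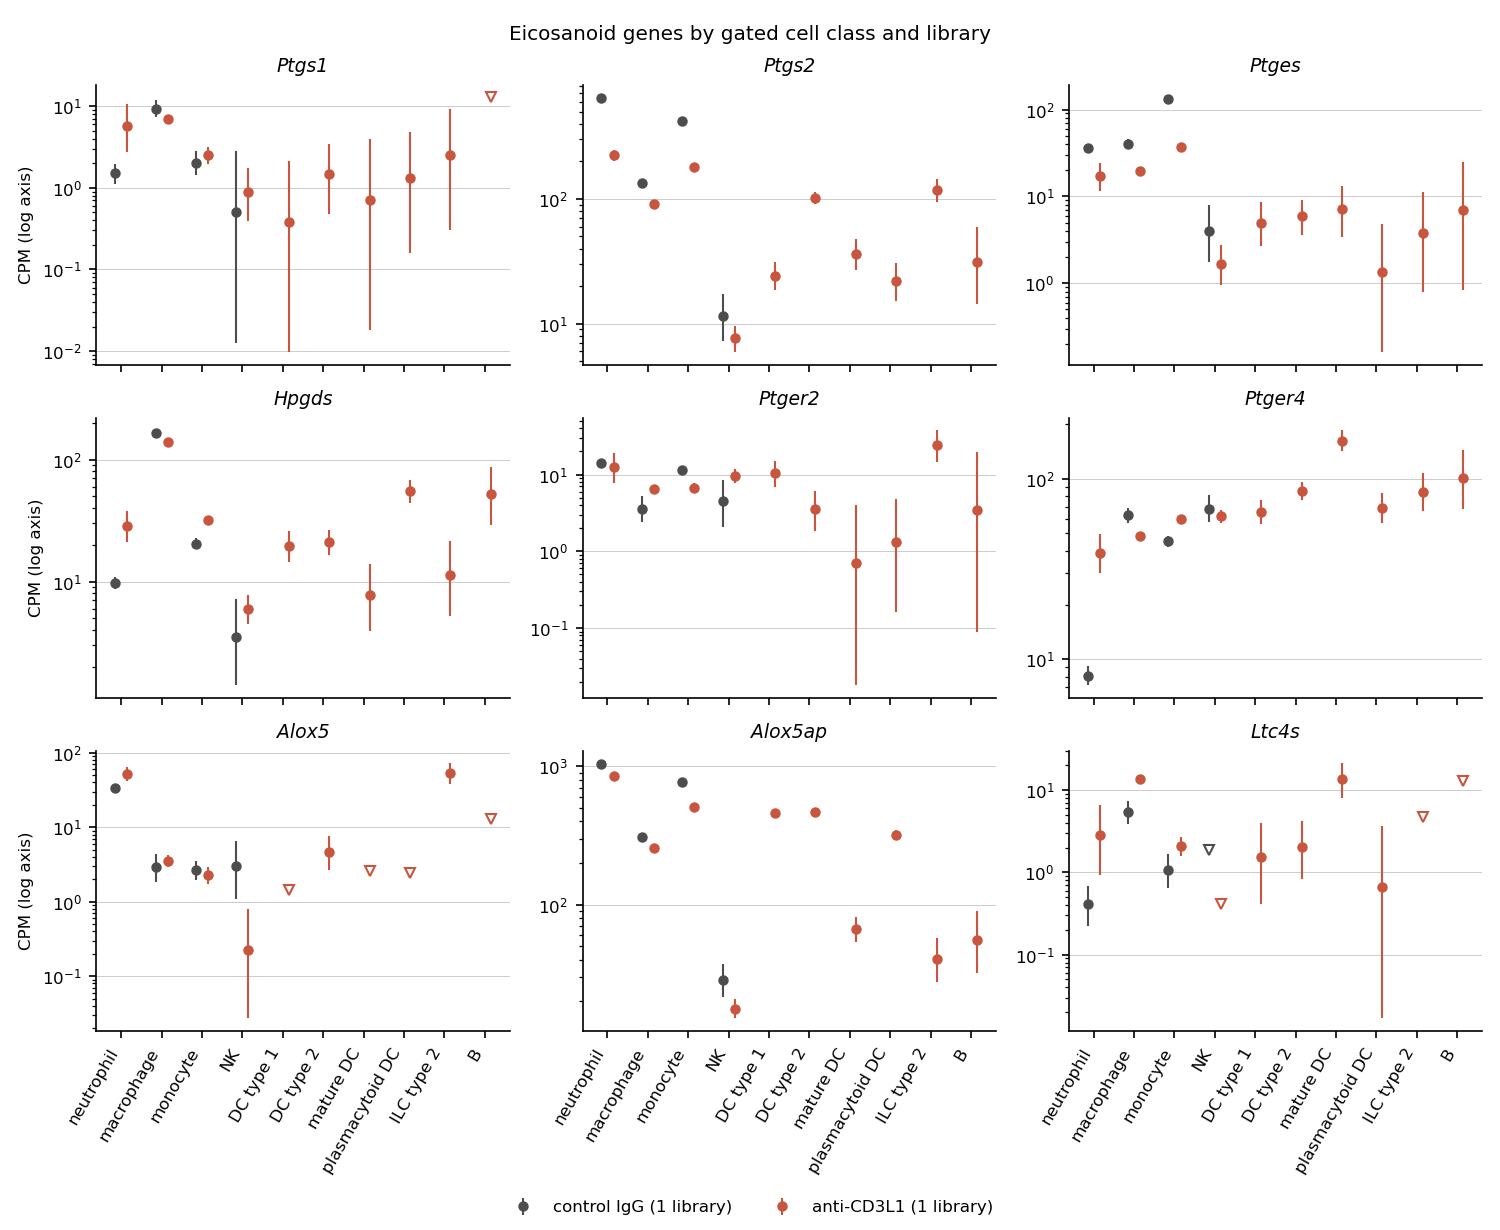
Levels of the 9 genes in CPM (log axis) by marker-gated class for the control IgG and anti-CD3L1 libraries, with exact Poisson 95% intervals for counting error. Ptgs2, Ptges and Alox5ap lie highest in myeloid classes, Hpgds in macrophage-like cells (164 and 139 CPM) and Ptger4 in mature dendritic-like cells of the anti-CD3L1 library (163 CPM).

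Of the receptors, Ptger4 (EP4) was the broad one. In the control IgG library it ran from 68.3 CPM (57.3 to 80.8) in NK-like cells through 62.7 CPM (57.2 to 68.6) in macrophage-like and 44.9 CPM (41.9 to 48.2) in monocyte-like cells to 8.11 CPM (7.18 to 9.12) in neutrophil-like cells, with NK-like and macrophage-like cells overlapping. In the anti-CD3L1 library, mature dendritic-like cells, the migratory CCR7+ form, led at 163 CPM (142 to 185), and only the interval of B-like cells reached it, at 101 CPM (67.6 to 145) on 29 UMIs. Type 2 dendritic-like (85.4 CPM), type 2 innate lymphoid-like (85.0 CPM), plasmacytoid dendritic-like (69.2 CPM), type 1 dendritic-like (65.7 CPM), NK-like (62.1 CPM) and monocyte-like cells (59.6 CPM) followed in that order, each overlapping its neighbour. Macrophage-like cells had 48.1 CPM (45.9 to 50.4) and neutrophil-like cells 38.8 CPM (30.1 to 49.2). Free RNA of that library carried Ptger4 at 48.1 CPM, within both of these intervals. In the control IgG library free RNA carried 18.8 CPM, above the neutrophil-like level only. Ptger2 (EP2) stayed under 25 CPM in every class described. Its highest control IgG level was 14.1 CPM (12.9 to 15.5) in neutrophil-like cells and its highest anti-CD3L1 level 24.1 CPM (14.5 to 37.6) in type 2 innate lymphoid-like cells, on 19 UMIs. NK-like cells had 4.52 CPM (2.07 to 8.58) and 9.66 CPM (7.73 to 11.9) of Ptger2.

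The leukotriene genes split by class. Alox5 was highest in neutrophil-like cells among the 4 shared classes, at 33.6 CPM (31.7 to 35.6) and 52.5 CPM (42.3 to 64.4) in the control IgG and anti-CD3L1 libraries. Macrophage-like cells had 2.94 CPM (1.84 to 4.44) and 3.54 CPM (2.97 to 4.19), and monocyte-like cells 2.65 CPM (1.94 to 3.52) and 2.27 CPM (1.75 to 2.90). Free RNA carried Alox5 at 16.3 CPM and 4.26 CPM, above the macrophage-like and monocyte-like levels in each library. The neutrophil-like level was 11.4-fold that of macrophage-like cells in the control IgG and 14.8-fold in the anti-CD3L1 library. Type 2 innate lymphoid-like cells of the anti-CD3L1 library reached the same range, at 53.3 CPM (38.4 to 72.0) on 42 UMIs in 127 cells. Type 1, mature and plasmacytoid dendritic-like cells and B-like cells held 0 Alox5 UMIs, which allows at most 1.15 CPM in type 1 dendritic-like, 2.13 CPM in mature dendritic-like, 2.0 CPM in plasmacytoid dendritic-like and 10.4 CPM in B-like cells, taking 3 UMIs as the limit of a count of 0.

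Alox5ap was wider. In the control IgG library it stood at 1036 CPM (1026 to 1047) in neutrophil-like, 765 CPM (752 to 778) in monocyte-like, 309 CPM (296 to 322) in macrophage-like and 28.6 CPM (21.7 to 37.1) in NK-like cells. In the anti-CD3L1 library the same classes held 855 CPM (812 to 899), 510.1 CPM (502 to 518), 258 CPM (253 to 263) and 17.7 CPM (15.1 to 20.7). Type 2 and type 1 dendritic-like cells, with 16 and 0 Alox5 UMIs, carried Alox5ap at 465 CPM (443 to 489) and 461 CPM (435 to 488), values that overlapped, while mature dendritic-like cells had 66.1 CPM (53.4 to 81.0). Free RNA carried Alox5ap at 576 CPM in the control IgG and 278 CPM in the anti-CD3L1 library. Neutrophil-like and monocyte-like cells lay above these values, and macrophage-like and NK-like cells below them, in each library. Ltc4s was found mainly in macrophage-like cells, at 5.47 CPM (3.93 to 7.42) and 13.6 CPM (12.5 to 14.8) on 41 and 519 UMIs, and in mature dendritic-like cells of the anti-CD3L1 library at 13.5 CPM (8.13 to 21.1) on 19 UMIs. Free RNA held Ltc4s at 2.0 CPM and 13.2 CPM, and the anti-CD3L1 free RNA value lay within the macrophage-like and mature dendritic-like intervals. No Ltc4s UMI was seen in NK-like cells of either library.

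The classes differed in number between the libraries, and the shares of each transcript's UMIs that they held differed as well. Neutrophil-like cells held 69% of all Ptgs2 UMIs in the control IgG and 3.48% in the anti-CD3L1 library, where monocyte-like cells held 45.4% and macrophage-like cells 31.0%. Alox5ap went from 66.3% neutrophil-like to 4.67%, with 44.8% from monocyte-like cells in the anti-CD3L1 library. In the control IgG library, 92.1% of Alox5 came from neutrophil-like cells. In the anti-CD3L1 library it came 23.5% from neutrophil-like, 34.5% from macrophage-like and 10.7% from type 2 innate lymphoid-like cells. The macrophage-like Alox5 level was below that of free RNA in both libraries. Macrophage-like cells supplied 59.5% and 76.0% of Hpgds and 42.3% and 77.0% of Ltc4s. Ptges kept monocyte-like cells as its main source, at 53.6% and 47.6%. Unassigned cells and those of classes not described held 3.93% and 14.2% of Ptgs2 UMIs, and 11.4% and 14.1% of Ptges UMIs. Over all cells, Ptgs2 read 469 CPM (464 to 475) against 115 CPM (113 to 117), Alox5 18.4 CPM (17.4 to 19.5) against 3.99 CPM (3.61 to 4.41), and Hpgds 30.7 CPM (29.4 to 32.1) against 71.2 CPM (69.6 to 72.9) in control IgG against anti-CD3L1, and such whole-library values mix class shares with levels within classes. Shares of UMIs also follow the share of each class among the cells, which the bead sort can set.

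**Figure D2:**
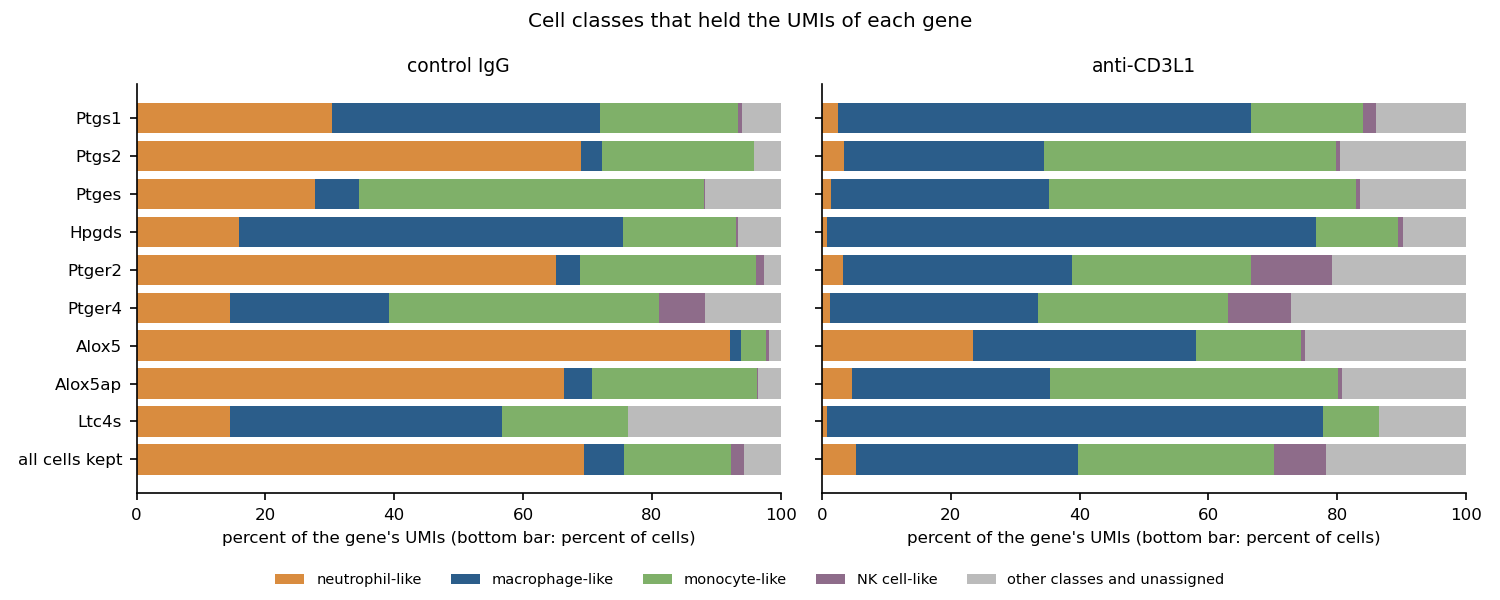
Percent of each gene's UMIs (horizontal axis) supplied by each marker-gated class in the control IgG and anti-CD3L1 libraries. Neutrophil-like cells supplied 69% of Ptgs2 UMIs in the control IgG and 3.48% in the anti-CD3L1 library, while macrophage-like cells supplied most Hpgds in both (59.5% and 76.0%).

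Within neutrophil-like cells, the PGE2 synthesis genes Ptgs2 and Ptges were lower in the anti-CD3L1 library, Ptges at levels not clearly above those of free RNA. Ptger4 was higher at levels below those of free RNA. Ptgs2 was 2.87-fold lower (log2 ratio -1.52, -1.67 to -1.38), from 21806 UMIs at 643 CPM to 392 UMIs at 224 CPM. Ptges was 2.10-fold lower (log2 ratio -1.07, -1.64 to -0.55), from 36.0 to 17.1 CPM. Ptger4 was 4.79-fold higher (log2 ratio 2.26, 1.85 to 2.65), from 8.11 to 38.8 CPM, Hpgds 2.94-fold higher (log2 ratio 1.56, 1.10 to 1.99) and Ptgs1 3.8-fold higher (log2 ratio 1.93, 0.78 to 2.92) on 51 and 10 UMIs. Alox5ap (log2 ratio -0.28, -0.35 to -0.20), Ptger2 (log2 ratio -0.17, -0.86 to 0.44) and Alox5 (log2 ratio 0.64, 0.32 to 0.95) stayed within 2-fold, and Ltc4s had too few UMIs (14 and 5) for a ratio. Free RNA carried Ptger4 at 18.8 CPM and 48.1 CPM, above the neutrophil-like values in both libraries though within the anti-CD3L1 interval, and free RNA for Hpgds was above both. Both genes were also higher in the anti-CD3L1 free RNA. For Ptges, free RNA held 64.4 CPM in the control IgG library, above the neutrophil-like value, and 16.2 CPM in the anti-CD3L1 library, within the neutrophil-like interval. Ptges was thus lower in the anti-CD3L1 free RNA as well. A free-RNA barcode of the anti-CD3L1 library held 0.00294 Ptger4 and 0.00334 Hpgds UMIs on average, where its 599 neutrophil-like cells held 68 and 50. A control IgG one held 0.00268 Ptges UMIs, where 5944 neutrophil-like cells held 1220. Subtracting free RNA, as an alternative, moved none of the Ptger4, Hpgds and Ptges ratios beyond its counting interval. A free-RNA barcode held only 41.6 UMIs in all on average in the control IgG and 61.1 in the anti-CD3L1 library. How much free RNA a cell carried is not known, so the subtraction cannot size its part in these ratios. That part was not otherwise tested.

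Thus 2 of 8 genes with at least 20 UMIs were at least 2-fold lower and 3 at least 2-fold higher, where 3.48% of all tested genes were lower and 34.5% higher by that much. For these shares a count of 0 was set to 3 UMIs, in classes of 33929184 control IgG and 1751671 anti-CD3L1 UMIs. That rule can place sparse genes on the higher side and keep them off the lower side. Among genes with at least 100 UMIs, the shares were 3.34% lower and 26.2% higher. The members' median log2 ratio was 0.24, and that of all 11668 genes 0.66. On a scale centred on the median of all genes, Ptgs2 stood at -2.18, Ptges at -1.73, Ptger4 at 1.60, Hpgds at 0.90 and Alox5 at -0.02. That median also rests on the rule for counts of 0, so the centred values are an alternative and not a preferred scale. Several measures moved with this comparison, and their part in it was not tested. The 8 neutrophil marker genes took 173151 CPM of the control IgG class and 86020.1 CPM of the anti-CD3L1 class, median UMIs per cell were 4502 and 2171, and the 10 macrophage markers, all detected in both libraries, summed to 266 and 1200.0 CPM. In the control IgG library, Hpgds and Ptger4 were both higher in macrophage-like than in neutrophil-like cells.

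The neutrophil-like class was not made of the same cells in both libraries. Graph clusters were built without the 9 genes or the other pathway genes. Control IgG neutrophil-like cells lay in clusters 2 (27.8%, led by Csta3 and Stfa2), 3 (27.2%, led by Ngp, Ly6g and Mmp8), 4 (22.3%, led by F3, Nos2, Il1a and Csf3) and 5 (19.3%, led by Slc40a1 and Osgin1), whereas 80.0% of the anti-CD3L1 cells lay in cluster 5. Within the control IgG library, Ptgs2 differed among them, at 1211 CPM (1188 to 1233) in cluster 4, 557 CPM (542 to 572) in cluster 3, 351 CPM (334 to 368) in cluster 5 and 300.3 CPM (288 to 313) in cluster 2. Cluster 4 alone held 34.7% of the library's Ptgs2 UMIs in 15.8% of its cells, and 84.1% (82.0 to 86.0%) of its cells had a Ptgs2 UMI. Alox5ap peaked instead in cluster 3, at 1558 CPM (1533 to 1583) in the control IgG and 1659 CPM (1482 to 1850.1) in the anti-CD3L1 library, the latter from 37 cells. Restricted to neutrophil-like cells of cluster 5 (1149 and 479 cells), Ptgs2 was 348 CPM (332 to 365) and 233 CPM (205 to 264) and its log2 ratio stood at -0.58, a difference under 2-fold like that of Ptges at -0.89, with Ptger4 at 1.17 and Hpgds at 0.90. In the anti-CD3L1 cells of clusters 3 and 4, 37 and 25 in number, Ptgs2 was 211 CPM (152 to 287) and 629.9 CPM (452 to 854), in both below the control IgG values given for these clusters.

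Monocyte-like cells showed the clearest pair. Ptges was 3.61-fold lower in the anti-CD3L1 library (log2 ratio -1.85, -1.96 to -1.75), from 133 CPM in the control IgG to 36.8 CPM in the anti-CD3L1 library. Ptgs2 was 2.32-fold lower (log2 ratio -1.21, -1.26 to -1.16), from 419.8 to 181 CPM. Alox5ap (765 to 510.1 CPM, log2 ratio -0.59, -0.62 to -0.55) and Ptger2 (11.4 to 6.78 CPM, log2 ratio -0.75, -1.04 to -0.45) were lower by less than 2-fold. Hpgds (log2 ratio 0.63, 0.46 to 0.81), Ptger4 (log2 ratio 0.41, 0.29 to 0.53) and Ltc4s (log2 ratio 0.97, 0.20 to 1.80) were higher by less than 2-fold, and the intervals of Ptgs1 (log2 ratio 0.31, -0.28 to 0.93) and Alox5 (log2 ratio -0.22, -0.79 to 0.35) included 0.

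Hence 2 of 9 genes were at least 2-fold lower, against 2.85% of all tested genes, and 0 at least 2-fold higher, against 11.8%. The members' median was -0.22 and the median of all genes 0.25. Cluster make-up moved with this result as well: 63.7% of control IgG monocyte-like cells lay in cluster 0 (led by Ly6c1, Timp1 and Vcan, with Ptges itself among its leading genes), and the anti-CD3L1 cells were spread over clusters 7 (29.1%), 14 (20.9%), 15 (18.9%) and 8 (18.8%). Cluster 0 held 64.2% of the control IgG library's Ptges UMIs in 15.3% of its cells, at 157 CPM (152 to 163). In the monocyte-like cells of cluster 7 alone (220 and 998 cells), Ptges was 48.8 CPM (40.7 to 58.1) and 47.5 CPM (42.7 to 52.7), with -0.04 as the log2 ratio, and Ptgs2 was 274 CPM (254 to 295) and 190.4 CPM (181 to 200.5), with -0.53 as the log2 ratio. In those cells the Ptges intervals overlapped and neither gene was 2-fold lower. Other clusters differed more, but their values here are of all cells of the cluster and not of monocyte-like cells alone. Cluster 0 itself had Ptges at 26.4 CPM (15.4 to 42.3) in 47 anti-CD3L1 cells, of which 23 were monocyte-like. Its Ptgs2 was 379 CPM (370.4 to 388) and 191 CPM (159 to 228) in the 2 libraries. Cluster 8 held 645 monocyte-like and 247 macrophage-like anti-CD3L1 cells. Ptges was 76.5 CPM (67.5 to 86.4) and 45.0 CPM (34.5 to 57.9) in cluster 1 and 56.8 CPM (45.4 to 70.1) and 33.2 CPM (29.3 to 37.4) in cluster 8.

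Macrophage-like cells differed less between the libraries. The log2 ratio of Hpgds was -0.24 (-0.33 to -0.15), that of Alox5ap -0.26 (-0.32 to -0.19) and that of Ptger4 -0.38 (-0.53 to -0.23). Those of Ptgs1 and Ptgs2 were -0.44 (-0.83 to -0.04) and -0.54 (-0.64 to -0.44), so that all 5 genes were lower in the anti-CD3L1 library by less than 2-fold. Alox5ap turned to 0.11 with classes from graph clusters and to 0.27 within 1 cluster, and Ptgs1 to 0.08 in thinned cells. Ptger2 was higher (log2 ratio 0.83, 0.26 to 1.47) on 27 and 245 UMIs, and the Alox5 interval included 0 (log2 ratio 0.27, -0.39 to 0.99). Ptges was 2.09-fold lower (log2 ratio -1.06, -1.26 to -0.86) and Ltc4s 2.49-fold higher (log2 ratio 1.32, 0.86 to 1.81). Accordingly 1 of 9 genes was at least 2-fold lower, where 4.72% of all tested genes were, and 1 at least 2-fold higher, where 7.26% were, with a members' median of -0.26 beside 0.02 for all genes. Free RNA carried Ptges at 64.4 CPM in the control IgG library, above the macrophage-like level of 40.4 CPM. It carried 16.2 CPM in the anti-CD3L1 library, below the macrophage-like level of 19.4 CPM. The Ptges and Ltc4s differences also changed direction with the definition of the class. With macrophage-like cells taken from graph clusters, Ptges stood at 0.14 and Ltc4s at -0.20, and within cluster 6 (led by C1qa, C1qc and Ms4a7) they stood at 0.36 and -0.30. Ptgs2 in that cluster was 115 CPM (104 to 126) and 46.3 CPM (43.6 to 49.2), with -1.31 as the log2 ratio. Free RNA carried Ptgs2 at 323 and 128 CPM and Alox5ap at 576 and 278 CPM in the control IgG and anti-CD3L1 libraries. These values lay above the macrophage-like levels of both genes, and above Ptgs2 of cluster 6, in each library. Cluster 6 held 49.3% of control IgG and 57.6% of anti-CD3L1 macrophage-like cells, with 33.0% of the former in cluster 0 and 20.6% of the latter in cluster 14.

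NK-like cells, nearly all in cluster 10 (99.4% and 99.8%), carried mainly Ptger4, with an interval of the ratio that included 0 (log2 ratio -0.14, -0.41 to 0.14). Ptger2 was 2.14-fold higher (log2 ratio 1.10, 0.10 to 2.27) on 9 and 86 UMIs. Its levels were 4.52 and 9.66 CPM, where free RNA carried 6.27 and 5.53 CPM. Ptges was 2.38-fold lower on 8 and 15 UMIs, with an interval that included 0 (log2 ratio -1.25, -2.58 to 0.19). All 8 control IgG Ptges UMIs lay in 0.621% of the 161 cells, so the ratio rests on very few cells. Ptger2 and Ptges were each the only 1 of 6 genes past 2-fold in their direction. Among all tested genes, 2.48% were lower and 7.97% higher by that much. The members' median was -0.37 beside 0.15 for all genes. Alox5ap was lower in the anti-CD3L1 NK-like cells (log2 ratio -0.69, -1.13 to -0.23), and the interval of Ptgs2 included 0 (log2 ratio -0.60, -1.30 to 0.15). When the cells with the most neutrophil-marker UMIs were left out, Ptgs2 and Alox5ap stood at 0.93 and 0.33, on the other side of 0. Neutrophil transcripts themselves were higher in the control IgG library in the other 3 shared classes. The 8 markers, all detected, summed to 2483 and 81.5 CPM in NK-like cells, 3127 and 227 CPM in macrophage-like cells and 4491 and 587 CPM in monocyte-like cells. With such cells left out, Ptgs2 stood at -0.50 in macrophage-like and -1.12 in monocyte-like cells, and Ptges at -0.95 and -1.78. A list of 10 immediate-early and heat shock genes, which tissue dissociation can raise, summed to 5700.0 and 8908 CPM in neutrophil-like, 5086 and 7918 CPM in monocyte-like, 12117 and 6995 CPM in macrophage-like and 4249 and 3460.2 CPM in NK-like cells. The list was thus higher in the anti-CD3L1 library in the first 2 of these classes and lower in macrophage-like and NK-like cells. Ptgs2 was lower in each of these classes, with an interval that included 0 in NK-like cells. The part of the list in the Ptgs2 values was not tested.

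**Figure D3:**
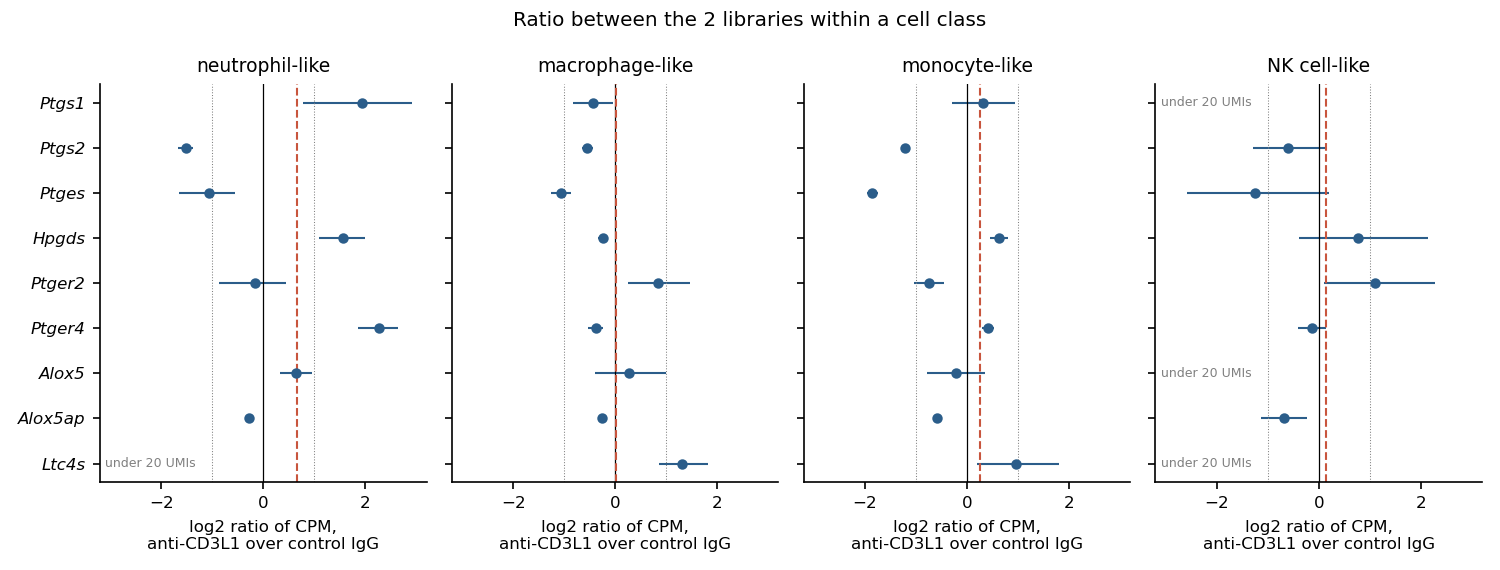
Log2 of the CPM in the anti-CD3L1 library divided by that in the control IgG library, for each gene (vertical axis) in the 4 shared classes, with exact 95% intervals for counting error and the median of all genes as a line. Ptgs2 and Ptges lie left of 0 in all 4 classes, with intervals that include 0 in NK-like cells, where Ptges rests on 8 and 15 UMIs. Ptger4 lies to the right in neutrophil-like (2.26) and monocyte-like (0.41) cells.

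Across the 14 graph clusters with at least 25 cells in both libraries, Ptgs2 was lower in the anti-CD3L1 library in 13 of 14, by 2-fold or more in 7, with a median log2 ratio of -1.14. The exception was cluster 11, led by the innate lymphoid genes Il1rl1 and Gata3 but holding cells of other classes too. Ptges was lower in 12 of the 13 clusters with at least 20 UMIs (median -0.77), by 2-fold or more in 4. Alox5ap was lower in 10 of 14 (median -0.21), by 2-fold or more in 1. Hpgds was lower in 7 and higher in 6, Ptger4 lower in 5 and higher in 9, Ptger2 lower in 5 and higher in 7, and Alox5 lower in 3 and higher in 7. By 2-fold or more, Ptger4 and Alox5 were each lower in 0 and higher in 4, Hpgds lower in 3 and higher in 3, and Ptger2 lower in 2 and higher in 3. Clusters share their library and its free RNA, in which Ptgs2, Ptges and Alox5ap were also lower in the anti-CD3L1 library (64.4 CPM and 16.2 CPM for Ptges, 576 CPM and 278 CPM for Alox5ap), so these counts are not independent.

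Single clusters held much of some transcripts. In the anti-CD3L1 library, cluster 14, led by Dcstamp, Areg, Hbegf and Il10, had Ptgs2 at 299 CPM (291 to 307), below only cluster 4 among clusters of at least 25 cells, and held 48.7% of the library's Ptgs2 UMIs and 34.8% of its Ptges UMIs in 16.5% of its cells. The 40 control IgG cells of cluster 14 had Ptgs2 at 789 CPM (713 to 871). Cluster 18, a small macrophage-like cluster of 202 anti-CD3L1 and 21 control IgG cells led by Lyve1, Cbr2, Gas6 and Folr2, stood out for the leukotriene genes. Its Ltc4s level was 178 CPM (161 to 198) in the anti-CD3L1 library, where 360 of 674 Ltc4s UMIs (53.4%) came from 1.79% of the cells and 52.5% (45.3 to 59.5%) of its cells had a Ltc4s UMI. Ltc4s is one of its leading genes, although it took no part in the clustering. The same cluster carried Alox5 at 45.6 CPM (36.8 to 55.9), which was 23.5% of the library's Alox5 UMIs, with Alox5ap at 492 CPM and Hpgds at 186 CPM. Its 21 control IgG cells had Ltc4s at 26.2 CPM (11.3 to 51.6) on 8 UMIs and Alox5 at 26.2 CPM (11.3 to 51.6). Macrophage-like cells of cluster 6 carried Ltc4s at 6.16 and 4.99 CPM. Cluster 18 held 3.94% of control IgG and 4.83% of anti-CD3L1 macrophage-like cells. Its part in the higher class level of Ltc4s in the anti-CD3L1 library was not tested. Cluster 11 had Alox5 at 90.6 CPM (68.1 to 118) on 54 UMIs in the anti-CD3L1 library and at 11.2 CPM (1.36 to 40.6) on 2 UMIs of 26 cells in the control IgG library. Its 143 anti-CD3L1 cells were mixed, with 96 type 2 innate lymphoid-like, 27 unassigned, 6 mast-like, 5 basophil-like, 5 macrophage-like and 4 neutrophil-like cells. Cluster 22 was 38 cells of the anti-CD3L1 library that passed the CD45 sort, of which 30 were fibroblast-like, 7 endothelial-like and 1 unassigned. It had Ptges at 91.3 CPM (70.0 to 117). That was above the monocyte-like level of 36.8 CPM in the same library. Cluster 22 also had the highest Ptgs1 in either library's clusters with at least 25 cells, at 25 CPM (14.6 to 40.1).

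**Figure D4:**
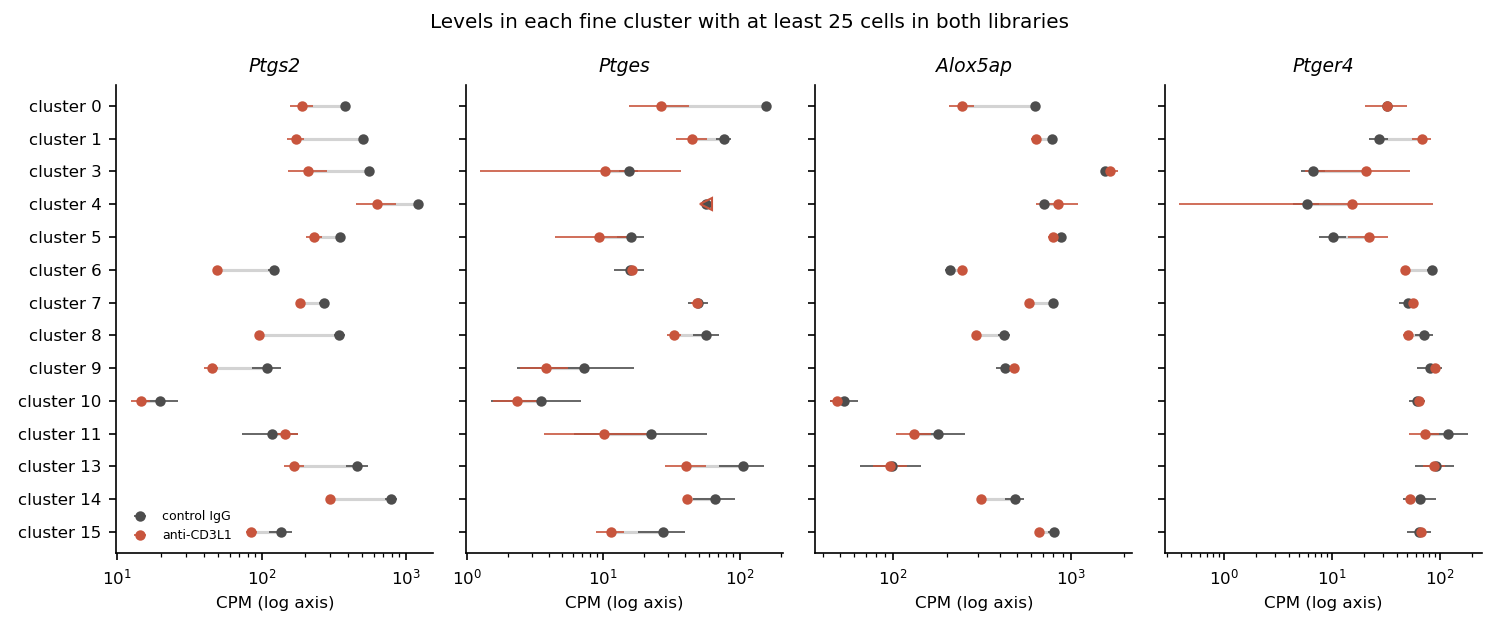
Level in CPM (log axis) of Ptgs2, Ptges, Alox5ap and Ptger4 in the control IgG and anti-CD3L1 libraries for the 14 graph clusters with at least 25 cells in both, with exact Poisson 95% intervals and open triangles at the upper bound of a count of 0. Ptgs2 is highest in cluster 4 of the control IgG library (1211 CPM) and lies lower in the anti-CD3L1 library in 13 of 14 clusters.

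Thinning every cell to 1000 UMIs put shares of positive cells on 1 depth and left out cells below that depth (between 0 and 145 per class and library in the 4 shared classes). In neutrophil-like cells, 31.5% (30.3 to 32.8%) had a Ptgs2 UMI in the control IgG and 17.0% (14.0 to 20.4%) in the anti-CD3L1 library (57.3% and 32.9% unthinned). Alox5ap was found in 54.8% (53.5 to 56.1%) and 55.1% (50.9 to 59.3%) of them (86.9% and 76.0% unthinned), shares that overlapped. In monocyte-like cells the shares were 24.9% (22.6 to 27.2%) and 13.3% (12.1 to 14.4%) for Ptgs2 (62.6% and 40.8% unthinned) and 9.21% (7.75 to 10.8%) and 3.59% (3.0 to 4.27%) for Ptges (43.8% and 20.4% unthinned). Hpgds was found in 15.2% (12.2 to 18.5%) and 12.2% (11.1 to 13.2%) of macrophage-like cells (58.7% and 53.5% unthinned). As a background, NK-like cells, which are lymphocytes and not known for Ptgs2 or Alox5ap, had a Ptgs2 UMI in 0.621% (0.0157 to 3.41%) and 0.544% (0.177 to 1.27%) (4.35% and 3.26% unthinned) and an Alox5ap UMI in 3.73% (1.38 to 7.93%) and 1.96% (1.16 to 3.08%) of thinned cells. Ptges was found in 0 of 161 control IgG NK-like cells, which with 3 cells as the limit of a count of 0 allows a share of up to 1.86% (0.621% had a UMI unthinned), and in 0.218% (0.0264 to 0.784%) of the anti-CD3L1 ones, and Hpgds in 0.621% (0.0157 to 3.41%) and 0.218% (0.0264 to 0.784%) of the same cells. Median UMIs per cell were 10964 and 8681 in NK-like, 12230.5 and 7831 in monocyte-like and 14068 and 9653 in macrophage-like cells.

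Ptgs2 was uneven among cells of a class. In control IgG neutrophil-like cells, 10% of the cells held 56.4% of the class's Ptgs2 UMIs and the highest cell had 114, where 10% of the cells held 36.4% of Alox5ap UMIs. Control IgG monocyte-like cells were alike, at 53.2% for Ptgs2, 67.6% for Ptges and 23.9% for Alox5ap. Ptgs2 was read more often in cells with a Ptges UMI in 3 of the 4 class and library pairs compared, with intervals that did not overlap. Among thinned control IgG monocyte-like cells, 40.5% (32.0 to 49.4%) of those with a Ptges UMI also had Ptgs2, against 23.3% (21.0 to 25.7%) of those without. The shares were 44.8% (36.6 to 53.3%) and 31.2% (29.99 to 32.4%) in control IgG neutrophil-like cells and 21.1% (14.3 to 29.4%) and 13% (11.8 to 14.2%) in anti-CD3L1 monocyte-like cells. In anti-CD3L1 macrophage-like cells they were 13.3% (6.58 to 23.2%) and 7.80% (6.96 to 8.71%), with intervals that overlapped. Ptgs2 and Alox5ap went the other way in control IgG neutrophil-like cells, with Ptgs2 in 28.5% (27.0 to 30.1%) of Alox5ap-positive and 35.2% (33.4 to 37.1%) of Alox5ap-negative cells. These shares describe cells of 1 library and carry no test.

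Of 45 other genes of the pathway, 2 were at least 2-fold lower and 7 at least 2-fold higher in anti-CD3L1 neutrophil-like cells among the 25 with at least 20 UMIs, 0 and 1 of 29 in macrophage-like cells, 2 and 6 of 28 in monocyte-like cells and 1 and 2 of 18 in NK-like cells. Of all tested genes, 3.48% and 34.5%, 4.72% and 7.26%, 2.85% and 11.8%, and 2.48% and 7.97% were lower and higher by that much in those classes, in the same order. The medians of the other pathway genes were 0.61, 0.19, 0.07 and 0.34 in those classes, beside the medians of all genes of 0.66, 0.02, 0.25 and 0.15. Upstream of the cyclooxygenases, Pla2g4a, the cytosolic phospholipase that releases arachidonate, was 78.7 CPM in control IgG and 36.5 CPM in anti-CD3L1 monocyte-like cells (log2 ratio -1.11), as Ptgs2 and Ptges were lower there, and the lysosomal phospholipase Pla2g15 was 60.4 and 80.9 CPM in macrophage-like cells (0.42). Tbxas1, which turns PGH2 into thromboxane A2, was higher in the anti-CD3L1 library in monocyte-like (34.2 and 75.3 CPM, 1.14), neutrophil-like (4.80 and 18.3 CPM, 1.93) and macrophage-like cells (77.7 and 103 CPM, 0.41). The aldose reductase Akr1b3, which can make PGF2α, was highest in NK-like cells of the anti-CD3L1 library, at 90.4 CPM (84.3 to 96.9). In neutrophil-like cells it was 3.89 and 19.98 CPM (2.36). Macrophage markers in that class summed to 266 and 1200.0 CPM, and their part in its Akr1b3 and Tbxas1 ratios was not tested. The cytosolic PGE2 synthase Ptges3, also a heat shock protein partner, was highest in control IgG NK-like cells at 300 CPM (277 to 325). In macrophage-like cells Ptges3 was 223 and 141 CPM (-0.66). Abcc4, an exporter of prostaglandins, was 106 and 53.9 CPM in monocyte-like cells (-0.97), and Tbxa2r, the thromboxane receptor, was highest in plasmacytoid dendritic-like cells of the anti-CD3L1 library at 65.2 CPM (53.0 to 79.5).

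On the leukotriene side, neutrophil-like cells carried the LTB4 receptor Ltb4r1 at 107 CPM (104 to 111) and 70.8 CPM (58.9 to 84.4) (-0.60) and Cyp4f18, which inactivates LTB4, at 409 CPM (402 to 416) and 533 CPM (499.6 to 569) (0.38). Among the 4 shared classes, neutrophil-like cells also had the highest Alox5. Abcc1, which exports LTC4, was highest in control IgG monocyte-like cells at 130 CPM (125 to 135), and was 119 and 53.1 CPM in neutrophil-like cells (-1.17). Mgst1, a microsomal glutathione transferase, was highest in control IgG neutrophil-like cells at 128 CPM (124 to 132), and was 95.9 and 47.1 CPM in monocyte-like cells (-1.03). Cotl1, whose protein binds 5-lipoxygenase, was 438 and 601 CPM in macrophage-like cells (0.46). Cysltr2, a cysteinyl leukotriene receptor, was 57.1 CPM (41.6 to 76.4) in type 2 innate lymphoid-like cells of the anti-CD3L1 library and 49.2 and 45.3 CPM in NK-like cells.

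Genes with the most similar pattern to each member were sought over the 8 sums of 4 classes in 2 libraries, by Pearson's r of log2(CPM + 1) among 4868 genes. For Ptgs2 these were Sqor (r = 0.995), Il1b (r = 0.992) and Cd14 (r = 0.990), Il1b being the inflammatory cytokine interleukin-1β and Cd14 a lipopolysaccharide co-receptor. For Ptges they were Dram1 (r = 0.995), Oas1a (r = 0.991) and Gnb2 (r = 0.988), for Hpgds Gdf15 (r = 0.982), Itga9 (r = 0.981) and Arrb2 (r = 0.978) and for Ptger4 Mrpl57 (r = 0.987), Cd48 (r = 0.985) and Ubl3 (r = 0.982). For Alox5 they were Arsg (r = 0.975), Chm (r = 0.975) and Slc40a1 (r = 0.971), Slc40a1 being the iron exporter ferroportin and a leading gene of cluster 5, and for Alox5ap Ehd1 (r = 0.996), Rab32 (r = 0.996) and Atrnl1 (r = 0.995). With 8 points that share libraries and classes, and the closest of many genes picked, such values are high by selection and are a description only.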

How the data were processed

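Per the labels and the study's methods, CD45+ cells enriched with beads from 143B tumors were loaded on a 10x Genomics system, and the submitters' processing notes name Cell Ranger 7.1.0, Seurat 5.1.0 and the build GRCm39. The authors deposited, for each of 2 libraries, a matrix of raw UMI counts per gene and barcode that still held empty droplets (1084690 and 1548857 barcodes, 74850604 and 108246719 UMIs), without gene coordinates. A deposited table of the authors' own comparison between the libraries, with fold changes and p-values per gene, was not used.

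Barcodes with at least 500 UMIs, more than 200 and fewer than 6000 genes and under 5% mitochondrial UMIs were kept. A cell entered a class when at least 3 of its markers were detected, its scaled marker score exceeded 0.2 and it led the next class by 0.05. Doublets were kept, because the automatic Scrublet threshold called 0 cells in either library. Leaving out the 586 and 1016 cells with the highest scores served as an alternative. Counts were summed per class and library and divided by all counts of the class. CPM intervals are exact Poisson and ratio intervals exact binomial, and ratios needed at least 20 UMIs over both libraries. In ratios, and so in the shares and medians of all genes, a count of 0 was set to 3 UMIs. Shares of cells have exact (Clopper-Pearson) intervals. Clusters came from a nearest-neighbour graph (leiden, resolution 1) on 2000 variable genes without the members or the other pathway genes. The effects of the alternatives are given in the closing section. Scripts were tested on simulated data with known ratios. Tables and sums were made with pandas 2.3.3 and numpy 2.4.6, intervals with scipy 1.17.1 and clusters with scanpy 1.11.5, scikit-learn 1.9.0 and igraph 0.11.9, under Python 3.11.15, and figures with matplotlib 3.10.9.

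The text names all 9 members, the other pathway genes with at least 50 CPM in a class of at least 50 cells, and the 3 genes most like each member with such a level. Of 46 other pathway genes, 1 (Dpep2) had 2 rows and was left out. The members, marker lists and pathway list were chosen with earlier results of these data known. Promoters are RefSeq windows of GRCm38.p6, another build than the files', and were matched by symbol. UMIs tag transcript 3′ ends and were not scaled by length.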

Additional observations from a re-analysis of the deposited data

How the results depend on the processing

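Each result rests on 1 library per group, and no paired analysis was possible because the results come from no test. Of the alternatives, 8 to the library ratios were set out with the design, and 2 (the cells of 1 cluster, and leaving out the cells with the most neutrophil markers) were chosen after seeing the data. Among single ratios, 257 values moved by less than their counting interval, 87 moved further without reversing a call, and 4 reversed: Ptges in macrophage-like cells (main -1.06) at 0.14 with classes from graph clusters and 0.36 within 1 cluster, and Ltc4s there (main 1.32) at -0.20 and -0.30. Ratios under 2-fold also crossed 0 under some alternatives: in macrophage-like cells Alox5ap (0.11 and 0.27) and Ptgs1 (0.08), in neutrophil-like cells Ptger2 (0.09) and Alox5 (-0.02), in monocyte-like cells Ptgs1 (-0.01) and Alox5 (0.09 to 0.90), and in NK-like cells Ptgs2 (0.26 and 0.93), Ptger4 (0.04) and Alox5ap (0.33). Ptgs2 was lower in the anti-CD3L1 library under all 10 alternatives in neutrophil-like (-2.18 to -0.58), macrophage-like (-1.31 to -0.26) and monocyte-like cells (-1.50 to -0.53), and Ptges in neutrophil-like (-2.53 to -0.89) and monocyte-like cells (-2.12 to -0.04). Between classes, graph clusters in place of the gate took the log2 ratio of Ptgs2 in neutrophil-like over macrophage-like cells from 2.27 to 1.24 in the control IgG and from 1.29 to 0.63 in the anti-CD3L1 library, and that of Ptgs1 in the latter from -0.27 to 0.74. Larger moves in the counts of members past 2-fold were as follows. The shares of all genes under the same settings are not given, so these counts describe the members only. Within 1 cluster (5 and 7), neutrophil-like cells had 0 lower and 1 higher in place of 2 and 3, and monocyte-like cells 0 lower and 1 higher in place of 2 and 0. With classes from graph clusters, neutrophil-like cells had 1 lower, macrophage-like and NK-like cells 0 lower, and monocyte-like cells 3 higher. A stricter gate gave 0 lower in macrophage-like and NK-like cells and 1 higher in monocyte-like cells. Thinning to 1000 UMIs gave 0 lower in macrophage-like and NK-like cells and 2, 2 and 0 higher in macrophage-like, monocyte-like and NK-like cells. Without the cells with the most neutrophil markers, 0 were lower in macrophage-like and NK-like cells, and 2 and 1 higher in macrophage-like and monocyte-like cells. A 10% mitochondrial limit and leaving out high doublet scores each gave 1 higher in monocyte-like cells, and centring gave 0 higher in NK-like cells. Centring also took Hpgds in neutrophil-like cells under 2-fold, at 0.90, and Ptger2 in monocyte-like cells just past 2-fold lower, at -1.0004, which changed those counts. With at least 100 UMIs, the counts of all genes lower and higher went from 406 and 4027 to 264 and 2070 in neutrophil-like, from 672 and 1034 to 261 and 438 in macrophage-like, from 395 and 1627 to 220 and 657 in monocyte-like and from 283 and 910 to 78 and 244 in NK-like cells. Shares of the genes tested fell as well, for example from 7.97% to 3.05% higher in NK-like cells. A minimum of 1000 UMIs per barcode and subtracting free RNA moved no ratio beyond its counting interval and no count by over 1.5 times. The subtraction does not size the part of free RNA, since how much of it a cell carried is not known. The causes of the shifts in this section were not tested. Depth limits Ltc4s, Ptgs1 and Alox5 outside their main classes, where most sums held under 100 UMIs.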
